A study of Mus musculus with 8 samples.

Results

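A set of 39 genes that encode potassium, HCN and sodium channel subunits was followed in the medial prefrontal cortex (mPFC) of mice after a test of drug-associated memory. The members were taken by gene name from a table of 54532 genes, and all 39 were found and had enough counts to be tested. In conditioned place preference (CPP), a chamber paired with a drug, here the psychostimulant methamphetamine, becomes the one an animal seeks out. The retrieval group held 4 RNA-seq libraries and the non-retrieval group 4, all from male adult C57BL/6 mice with no genetic modification named in the labels. Each library was made from 2 to 3 mice mixed into 1 pool, with tissue collected 1 h after the CPP test had ended. The labels name the treatment only as retrieval or non-retrieval, so how the non-retrieval mice were handled is not given in the sources used here. The number of conditioning sessions and the drug dose are likewise not given there.

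Voltage-gated sodium channels carry the inward current of the action potential, and potassium channels repolarise the membrane, set the resting potential and limit repetitive firing. HCN channels open on hyperpolarisation and shape how dendrites sum their inputs. In cortical neurons the mix of these channels decides how readily a cell fires, and small-conductance calcium-activated (SK) channels, which produce part of the afterhyperpolarisation, also curb calcium entry at dendritic spines.

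Most of the 39 channel genes differed little between the groups. Kcnn3, which encodes an SK channel subunit, rose in retrieval, and it was the only member called in the main fit, which did not pair libraries by number. It averaged 23.9 ± 0.972 CPM (the usual depth-scaled count, here with TMM-adjusted library sizes) in retrieval libraries and 17.4 ± 1.41 CPM in non-retrieval libraries (SD, n = 4 each). Its log2 fold change was 0.46 (SE 0.08; edgeR quasi-likelihood test, Benjamini-Hochberg adjusted p = 0.00396). The other 38 members did not pass in that fit, and the largest of their differences in size was 0.342 on the log2 scale, for Kcnj2. With the replicate number as a block, 5 members were higher, Kcnn3 among them, and 5 lower (12.8% each, against 7.61% and 3.09% of all tested genes).

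In the main fit over all 16745 tested genes, 766 were called at an adjusted p under 0.05, which is 4.57%, against 2.56% of the members. Higher calls made up 3.67% of all tested genes and lower calls 0.902%, against 1 and 0 of the 39 members. At an unadjusted p under 0.05, 6 members were higher and 6 lower, 15.4% in each direction, against 11.2% higher and 7.27% lower among all tested genes. The 4 retrieval libraries lay wholly above the 4 non-retrieval libraries for Kcnn3, Kcnf1 and Kcnn2 (7.69% of members, against 6.59% of all tested genes). They lay wholly below for Kcnj11, Scn2b and Kcnh1 (7.69% of members, against 4.53% of all tested genes).

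**Figure D1:**
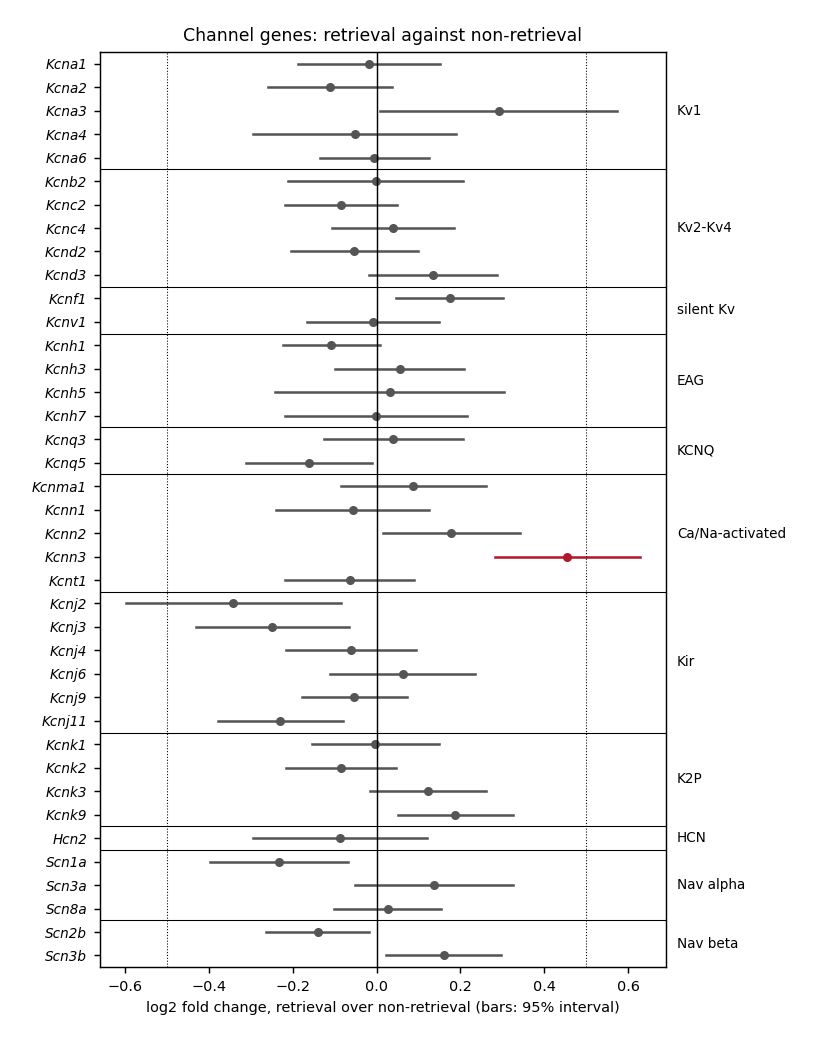
Log2 fold change of each channel gene, retrieval over non-retrieval, on the horizontal axis with its 95% interval as a bar, by gene family down the page. Kcnn3, in red, is the only member called (adjusted p = 0.00396), and 36 of the 39 intervals lie between the dotted lines at -0.5 and 0.5.

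The 5′ ends of the genes are shown for 3 members, of which Kcnn3 was taken because it was called. Hcn2 and Scn8a were the 2 most abundant per length among the members with a window that matched the binding motif of EGR1. The transcript of EGR1 itself rose in retrieval. The windows run from 250 bases before to 50 after a RefSeq gene start in GRCm38.p6, and RefSeq entries were matched by symbol for 27 of the 39 members, with 37 windows in all. The capitals mark the EGR1 motif match on either strand, and the window of Kcnn3 held none. Kcnn3 lies at chr3:89519914-89520213, plus strand, Hcn2 at chr10:79716384-79716683, plus strand, and Scn8a at chr15:100870395-100870694, plus strand.
Kcnn3: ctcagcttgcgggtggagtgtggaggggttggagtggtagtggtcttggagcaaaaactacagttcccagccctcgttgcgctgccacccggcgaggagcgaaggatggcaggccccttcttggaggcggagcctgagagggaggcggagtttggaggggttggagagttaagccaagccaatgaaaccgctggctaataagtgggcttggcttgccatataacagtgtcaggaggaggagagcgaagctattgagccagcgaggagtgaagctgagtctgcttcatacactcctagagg
Hcn2: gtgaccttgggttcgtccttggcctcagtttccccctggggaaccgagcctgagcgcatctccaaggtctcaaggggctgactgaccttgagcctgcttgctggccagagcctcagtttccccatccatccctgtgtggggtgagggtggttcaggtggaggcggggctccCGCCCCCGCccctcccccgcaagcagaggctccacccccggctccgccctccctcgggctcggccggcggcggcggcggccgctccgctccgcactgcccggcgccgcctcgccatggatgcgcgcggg
Scn8a: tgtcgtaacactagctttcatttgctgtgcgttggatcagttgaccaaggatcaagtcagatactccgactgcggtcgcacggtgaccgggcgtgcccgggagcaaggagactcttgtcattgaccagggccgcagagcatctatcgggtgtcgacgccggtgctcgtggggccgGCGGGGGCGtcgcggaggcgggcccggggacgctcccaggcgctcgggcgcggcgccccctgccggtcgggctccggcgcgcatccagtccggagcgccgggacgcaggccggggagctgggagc

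The EGR1 motif GCGNGGGCG, read on both strands, was found in 4 of the 37 member windows (10.8%), against 5.55% of all 32851 windows of that length. The 4 windows belonged to Hcn2, Kcna4, Kcnk2 and Scn8a. The match began 79 bases before the start of Hcn2 and 75 before a listed start of Scn8a (positions -79 and -75). Scn8a and Kcnk2 also had windows without this motif. None of these 4 genes was called (adjusted p 0.684 for Hcn2, 0.851 for Kcna4, 0.494 for Kcnk2 and 0.859 for Scn8a, edgeR). The cyclic AMP response element TGACGTCA was in 0 of the 37 windows, against 1.79% of all, and the AP-1 motif TGANTCA was in 1, that of Kcnk2 (2.7%, against 7.81%). None of the 3 motifs contains another. Member windows had a median GC content of 62.7%, against 52.7% over all windows.

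Total counts per library ran from 25013503 to 29547978, 23474 to 24671 genes had a count, and the members took 0.479% to 0.512% of the counts. The activity-regulated transcripts separated the groups. Fos, an AP-1 subunit, averaged 60.8 ± 4.28 CPM in retrieval and 13.1 ± 4.37 CPM in non-retrieval (SD, n = 4 each; log2 fold change 2.21, SE 0.16; edgeR adjusted p = 2.24e-07). Arc, a synaptic immediate early gene, averaged 431 ± 57.9 against 97.3 ± 42.0 CPM, and Egr1, a zinc-finger factor, 652 ± 49.2 against 197 ± 36.3 CPM. All 8 pan-neuronal markers were present, 7 with a negative log2 fold change, and the median was -0.11, against -0.01 over all tested genes. None of the 8 passed the test (summed level 7399 to 8041 CPM in retrieval and 8030 to 8423 CPM in non-retrieval). None of the 6 excitatory, 6 general GABAergic, 8 astrocyte or 8 microglia markers passed in edgeR either. At an unadjusted p under 0.05, 3 pan-neuronal and 1 excitatory marker were lower, as was 1 GABAergic marker, while 1 astrocyte marker was higher and 0 microglia markers passed in either direction. Of 8 endothelial and mural markers 2 were higher, and the sum was 346 to 406 CPM in retrieval and 330 to 348 CPM in non-retrieval. Myelinating oligodendrocyte markers were higher for 6 of 10, with a summed level of 4121 to 5980 CPM in retrieval and 3398 to 4008 CPM in non-retrieval. Within retrieval, libraries 2 (5980 CPM) and 4 (5430 CPM) were high in these markers. Parvalbumin fast-spiking interneuron markers were lower for 4 of 9 (Pvalb, Syt2, Vamp1 and Hapln4), with a sum of 1127 to 1215 CPM in retrieval and 1328 to 1438 CPM in non-retrieval. Of the 9 striatal projection neuron markers tested none passed, with 4 higher at an unadjusted p under 0.05. Their sum was 368 CPM in retrieval library 2, 217 to 265 CPM in the other retrieval libraries and 212 to 249 CPM in non-retrieval. Of these 9 markers 8 had a positive log2 fold change, with a median of 0.27. In bulk tissue, fewer cells of a type and less RNA per cell cannot be told apart.

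The calcium-activated SK family held the called gene. Kcnn3 (ENSMUSG00000000794, GRCm38 chr3:89520164-89675132, plus strand) had 22.7, 24.6, 23.6 and 24.7 CPM in retrieval libraries 1 to 4, against 17.9, 18.3, 18.2 and 15.3 CPM in non-retrieval libraries 1 to 4. Every retrieval library was above every non-retrieval library, the lowest being non-retrieval library 4. These levels rest on 616 to 693 reads per retrieval library and 455 to 512 reads per non-retrieval library. The 95% interval of its log2 fold change was 0.28 to 0.63. The call held with each of the 8 libraries left out in turn (adjusted p 0.00172 to 0.0204, log2 fold change 0.40 to 0.49) and in DESeq2 and limma-voom. With the myelin marker level as a covariate the log2 fold change was 0.36 (SE 0.12) and the call ended (adjusted p = 0.191). The myelin markers moved with the groups, as given above. Retrieval libraries 2 and 4 were the highest of their group in both Kcnn3 and the myelin sum. Non-retrieval library 2 was highest and library 4 lowest in both. The myelin sums of non-retrieval libraries 1 and 4 were nearly equal (3402 and 3398 CPM), while Kcnn3 was 17.9 and 15.3 CPM. The part of the myelin markers in the result was not tested.

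The other SK subunit genes did not pass. Kcnn2 had 34.7, 41.2, 36.9 and 35.4 CPM in retrieval libraries and 34.6, 34.3, 30.1 and 32.1 CPM in non-retrieval libraries (log2 fold change 0.18, SE 0.08; adjusted p = 0.225). Its groups did not overlap, but the lowest retrieval and highest non-retrieval libraries were nearly equal. The value was 0.09 with a length and GC offset per library and 0.08 with the myelin covariate. Kcnn1 averaged 23.2 ± 1.68 CPM in retrieval and 24.1 ± 2.27 CPM in non-retrieval (log2 fold change -0.06, 95% interval -0.24 to 0.13). Per gene length and by the mean over all 8 libraries, Kcnn3 was the least abundant of the 39 members, at 2.29 ± 0.093 RPKM (CPM per kilobase of gene length) in retrieval and 1.67 ± 0.135 RPKM in non-retrieval (SD, n = 4 each). It made up 18.5% ± 1.12 of the summed RPKM of the 3 SK genes in retrieval (17.6% to 20.1%) and 14.6% ± 1.06 in non-retrieval (13.1% to 15.3%). The share of Kcnn1 was 40.8% ± 1.57 in retrieval and 46.1% ± 3.58 in non-retrieval, and that of Kcnn2 was 40.8% ± 1.10 in retrieval and 39.3% ± 3.16 in non-retrieval. Kcnma1, the pore of the large-conductance BK channel, stood at 314 ± 35.3 CPM in retrieval and 296 ± 27.6 CPM in non-retrieval (log2 fold change 0.09, interval -0.09 to 0.26). Kcnt1, a sodium-activated potassium channel, differed by -0.06 (interval -0.22 to 0.09).

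**Figure D2:**
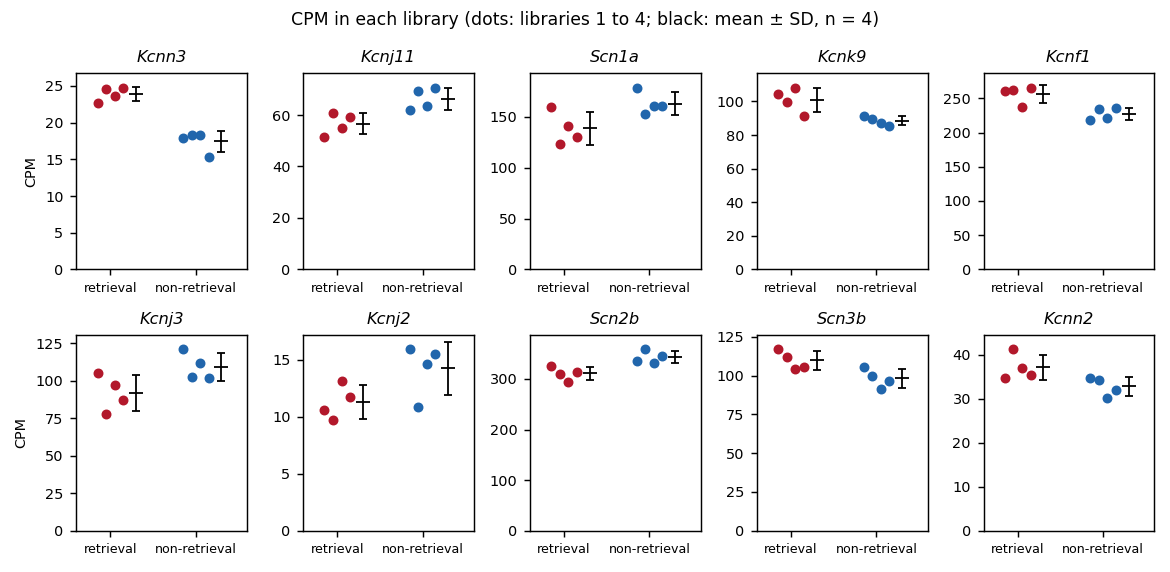
CPM in each library for the 10 members with the smallest p, retrieval at the left in red and non-retrieval at the right in blue, with mean ± SD (n = 4) in black and the vertical axis starting at 0. Kcnn3 shows the clearest separation, with 22.7 to 24.7 CPM in retrieval and 15.3 to 18.3 CPM in non-retrieval.

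Inward rectifiers, which hold the resting potential and include the channels opened by G-protein-coupled receptors, had 0 of 6 members called. Of the 6, 5 had a negative log2 fold change, with a median of -0.15 over these members, against -0.01 over all tested genes. The 6 other inward rectifier genes tested went mostly the other way, 5 positive and 1 negative, with a median of 0.05. Kcnj11, the pore of the ATP-sensitive potassium channel (ENSMUSG00000096146, chr7:46093953-46100764, minus strand), had 51.6, 60.6, 54.8 and 59.3 CPM in retrieval libraries. In non-retrieval libraries it had 61.9, 69.4, 63.5 and 70.6 CPM. The groups did not overlap, although retrieval library 2 came within 2 CPM of non-retrieval library 1. Its log2 fold change was -0.23 (SE 0.07; interval -0.38 to -0.08; adjusted p = 0.0776), and DESeq2 called it lower (adjusted p = 0.0435). With the myelin covariate its log2 fold change was -0.38 (adjusted p = 0.0702).

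Kcnj3 (ENSMUSG00000026824, chr2:55435970-55598145, plus strand) encodes a subunit of the G-protein-gated inward rectifiers. It had 105, 77.8, 97.3 and 87.4 CPM in retrieval libraries and 121, 102, 112 and 101 CPM in non-retrieval libraries (log2 fold change -0.25, SE 0.09; adjusted p = 0.126). Retrieval library 1 lay within the non-retrieval range and the other 3 below it. With the myelin marker level as a covariate its log2 fold change was 0.0079. The other members of that channel type were closer to 0, with -0.05 (interval -0.18 to 0.07) for Kcnj9 and 0.06 (interval -0.11 to 0.23) for Kcnj6. Kcnj5, of the same type but not a member, was little expressed, at 0.865 ± 0.192 CPM in retrieval and 0.540 ± 0.0761 CPM in non-retrieval. Its log2 fold change was 0.68 (SE 0.29; edgeR adjusted p = 0.216). Of the summed RPKM of Kcnj3, Kcnj5, Kcnj6 and Kcnj9, Kcnj9 made up 69.8% ± 3.05 in retrieval and 67.5% ± 2.50 in non-retrieval.

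Kcnj2 (ENSMUSG00000041695, chr11:111066164-111076821, plus strand), a strong inward rectifier, had 10.5, 9.69, 13.1 and 11.7 CPM in retrieval libraries. It had 15.9, 10.9, 14.6 and 15.5 CPM in non-retrieval libraries. Non-retrieval library 2 lay within the retrieval range and the other 3 above it. The log2 fold change was -0.34 (SE 0.12; interval -0.60 to -0.09; adjusted p = 0.133), and without non-retrieval library 2 it was -0.45 (adjusted p = 0.0311). With the myelin covariate it was -0.06 (adjusted p = 0.903). Kcnj4, another strong inward rectifier, was the most abundant member per length, at 87.7 ± 6.84 RPKM in retrieval and 91.4 ± 7.77 RPKM in non-retrieval. Its log2 fold change was -0.06 (interval -0.22 to 0.09).

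Sodium channel genes had 0 of 5 members called. Scn1a (ENSMUSG00000064329, chr2:66270778-66440840, minus strand) encodes a pore subunit that fast-spiking parvalbumin interneurons depend on for firing. It had 159.8, 123, 141 and 130.4 CPM in retrieval libraries and 179, 152, 160.2 and 161 CPM in non-retrieval libraries. Retrieval library 1 lay within the non-retrieval range and the other 3 below it. Its log2 fold change was -0.23 (SE 0.08; interval -0.40 to -0.07; adjusted p = 0.112), and without retrieval library 1 it was -0.30 (adjusted p = 0.00996). Its share of the summed RPKM of Scn1a, Scn2a, Scn3a and Scn8a was 16.3% ± 0.926 in retrieval (15.1% to 17%) and 18.9% ± 1.27 in non-retrieval (17.1% to 19.8%). The parvalbumin interneuron marker sum was lower in retrieval than in non-retrieval, as given above. Within each group, library 1 had the lowest sum (1127 CPM in retrieval, 1328 CPM in non-retrieval) and the highest Scn1a. The part of these markers in the group difference was not tested. With the myelin marker level as a covariate the log2 fold change of Scn1a was -0.01 (adjusted p = 0.971).

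Scn8a, the pore subunit concentrated at the axon initial segment, was the member with the highest CPM and was level, at 442 ± 9.58 CPM in retrieval and 434 ± 28.7 CPM in non-retrieval (log2 fold change 0.03, interval -0.10 to 0.15). Scn3a, which is most abundant before birth, differed by 0.14 (interval -0.05 to 0.33). The accessory beta subunits, which modulate gating and surface expression, had differences of opposite sign. Scn2b (ENSMUSG00000070304, chr9:45117782-45130070, plus strand) had 326, 311, 294 and 313 CPM in retrieval libraries and 335, 359, 332 and 345 CPM in non-retrieval libraries (log2 fold change -0.14, SE 0.06; adjusted p = 0.196). Its groups did not overlap. Scn3b (ENSMUSG00000049281, chr9:40269217-40291618, plus strand) had 117, 112, 104 and 106 CPM in retrieval libraries and 106, 99.4, 91.1 and 96.8 CPM in non-retrieval libraries (log2 fold change 0.16, SE 0.07; adjusted p = 0.196). Retrieval libraries 3 and 4 overlapped with non-retrieval library 1.

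Electrically silent subunits form no channel alone and modify the Kv2 channels they join. Kcnf1 (ENSMUSG00000051726, chr12:17172100-17176888, minus strand) had 261, 263, 237 and 265 CPM in retrieval libraries and 218, 235, 220.5 and 236 CPM in non-retrieval libraries. The groups did not overlap, and retrieval library 3 lay about 1 CPM above the highest non-retrieval library. Its log2 fold change was 0.17 (SE 0.06; interval 0.05 to 0.30; adjusted p = 0.124), and limma-voom called it higher (adjusted p = 0.0407). Per length it stood at 53.6 ± 2.80 RPKM in retrieval and 47.5 ± 1.91 RPKM in non-retrieval. With the myelin marker level as a covariate its log2 fold change was 0.09 (adjusted p = 0.667). Kcnv1, also silent, had a log2 fold change of -0.01 (interval -0.17 to 0.15).

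The two-pore-domain (K2P) leak channels set the background potassium conductance. Kcnk9, which encodes an acid-sensitive leak channel (ENSMUSG00000036760, chr15:72501089-72546340, minus strand), had 104, 99.8, 108 and 91.2 CPM in retrieval libraries and 91.6, 89.8, 87.3 and 85.5 CPM in non-retrieval libraries. Only retrieval library 4 overlapped the non-retrieval range. Its log2 fold change was 0.19 (SE 0.06; interval 0.05 to 0.32; adjusted p = 0.123). It was 0.09 (adjusted p = 0.321) with the length and GC offset and 0.29 (adjusted p = 0.156) with the myelin covariate. Kcnk3, a close relative in sequence and acid sensitivity, differed by 0.12 (interval -0.01 to 0.26), the mechanosensitive Kcnk2 by -0.09 (interval -0.22 to 0.05), and Kcnk1 stood at 83.4 ± 5.05 CPM in retrieval and 83.5 ± 7.42 CPM in non-retrieval. Where the strand setting of the counting is unknown, reads of genes that overlap on opposite strands cannot be told apart. Strand does not separate genes that overlap on the same strand at any setting. Overlapping genes carried more than 10% of a member's own count for 4 members. The share was 55.8% for Kcnk3 (Gm9899, opposite strand), 27.3% for Kcnh3 (Mcrs1, opposite strand), 24.7% for Kcnj6 (AC165271.1, opposite strand) and 10.7% for Kcnk2 (Pdcd5-ps, same strand). Kcnn3 had no overlapping gene.

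Kv1 subunits, which sit in axons and set the threshold and timing of spikes, had 0 of 5 members called. The log2 fold change was -0.02 for Kcna1, -0.11 for Kcna2, -0.05 for Kcna4 and -0.01 for Kcna6, with the widest of these intervals, that of Kcna4, from -0.29 to 0.19. Kcna3, the least certain, had 17.4, 21.9, 17.8 and 18.7 CPM in retrieval libraries and 14.5, 21.3, 12.8 and 13.6 CPM in non-retrieval libraries. Non-retrieval library 2 was high and lay inside the retrieval range, and the difference was 0.29 (interval 0.01 to 0.57; adjusted p = 0.257). The coefficient of variation of Kcna3 over the non-retrieval libraries was 25.1%, the highest of any member in either group.

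The subunits of Kv2, Kv3 and Kv4 channels, which repolarise the soma, allow fast firing and produce A-type current in dendrites, also had 0 of 5 members called. Kcnd3 differed by 0.13 (interval -0.02 to 0.29) and Kcnd2, the main dendritic A-type subunit, by -0.05 (interval -0.20 to 0.10). Kcnc2, a subunit of fast-spiking interneurons, stood at 145 ± 6.33 CPM in retrieval and 154 ± 9.81 CPM in non-retrieval (log2 fold change -0.08). Kcnc4 differed by 0.04 (interval -0.11 to 0.18), and Kcnb2 averaged 32.8 ± 4.51 CPM in retrieval and 32.8 ± 3.63 CPM in non-retrieval.

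Among the ether-a-go-go family, Kcnh1 showed groups that did not overlap, at 123, 124, 119.9 and 124 CPM in retrieval libraries and 132, 129.5, 135 and 132 CPM in non-retrieval libraries. The difference was small, -0.11 on the log2 scale (SE 0.05; interval -0.22 to 0.01; adjusted p = 0.307). Its coefficient of variation was 1.48% in retrieval, the lowest of any member in either group. Kcnh3 and Kcnh5 had log2 fold changes of 0.06 and 0.03, and Kcnh7 averaged 137 ± 21.8 CPM in retrieval and 137 ± 17.6 CPM in non-retrieval. Kcnq3 and Kcnq5 encode subunits of the M-current, a slow potassium current closed by muscarinic receptors. Kcnq5 averaged 109 ± 9.57 CPM in retrieval and 122 ± 7.63 CPM in non-retrieval (log2 fold change -0.16, interval -0.31 to -0.01; adjusted p = 0.235). Kcnq3 differed by 0.04 (interval -0.13 to 0.21).

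Hcn2 was the one HCN channel gene among the members and the second most abundant member per length, at 70.2 ± 10.7 RPKM in retrieval and 74.6 ± 7.92 RPKM in non-retrieval. It had 179, 258, 219 and 241 CPM in retrieval libraries and 200.5, 251, 253 and 249.8 CPM in non-retrieval libraries (log2 fold change -0.09, SE 0.10; interval -0.30 to 0.12; adjusted p = 0.684). Library 1 was the lowest in both groups.

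The precision of the members bounded the size of most differences. The 95% interval lay within -0.5 to 0.5 for 36 of the 39 members (92.3%), the exceptions being Kcnn3, Kcnj2 and Kcna3. Among the 9111 tested genes at or above the lowest member mean of 12.7 CPM the share was 94.6%, and among all tested genes 67.0%. The median size of the log2 fold change was 0.0859 over the members, 0.0858 over those 9111 genes and 0.117 over all tested genes. In those 9111 genes 5.91% were called. The signed median was -0.01 over the members, with 16 positive and 23 negative, and -0.01 over all tested genes. Of the 39 members, 22 had a log2 fold change below 0.1 in size. Members had a median level of 16.7 RPKM, against 3.88 RPKM over all tested genes, and a median gene length of 5461 bases, against 4032.

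**Figure D3:**
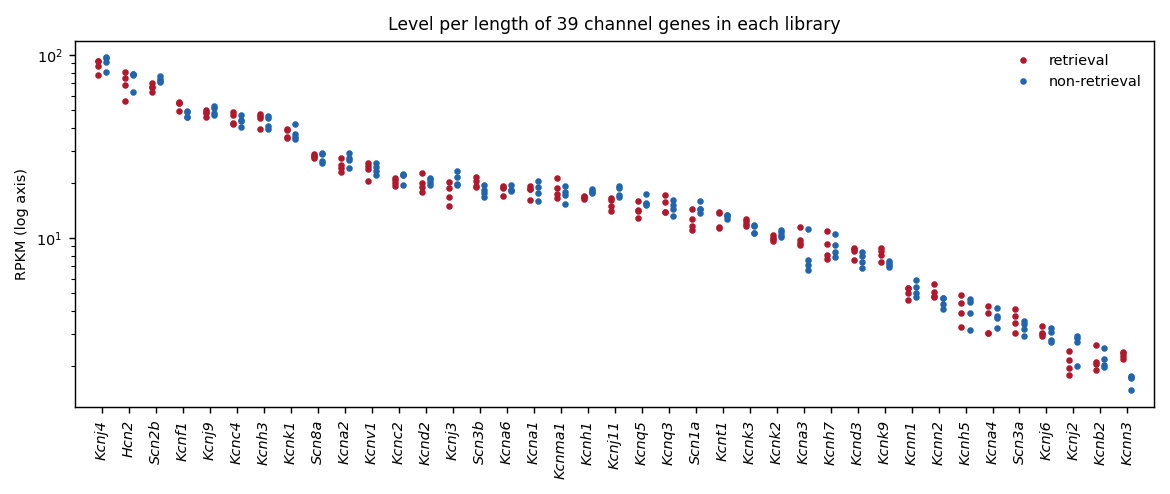
Level per length (RPKM, log axis) of the 39 channel genes, ordered from high to low by the mean over all 8 libraries, with 1 dot per library, retrieval in red at the left of each pair and non-retrieval in blue at its right. At the high end stands Kcnj4 (87.7 RPKM in retrieval, 91.4 RPKM in non-retrieval) and at the low end Kcnn3 (2.29 RPKM in retrieval, 1.67 RPKM in non-retrieval), although in retrieval alone Kcnj2 (2.07 RPKM) and Kcnb2 (2.16 RPKM) were lower, and the groups overlap for most genes.

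Libraries of 1 group differed among themselves by amounts similar to most group differences. In some libraries these deviations moved with base composition and gene length. The median coefficient of variation over members was 7.80% in retrieval and 7.86% in non-retrieval. Among the 13 members of lowest GC content (39.3% to 45.7%), the mean deviation from the gene mean, in log2 CPM, was 0.146 in retrieval library 1 and -0.132 in retrieval library 2, against 0.134 in non-retrieval library 1. Among the 13 of highest GC content (53.3% to 65.4%) it was -0.08 in retrieval library 1 and 0.11 in retrieval library 2, against -0.1 in non-retrieval library 1. Across the 39 members, Pearson's r between GC content and deviation was -0.665, 0.628, -0.12 and 0.432 in retrieval libraries 1 to 4, against -0.787, 0.252, 0.103 and 0.229 in non-retrieval libraries 1 to 4. Over all tested genes with a GC value, r was -0.359 and 0.29 in retrieval libraries 1 and 2 and -0.331 in non-retrieval library 1. In the other libraries it was -0.0146 to 0.171. With log2 gene length, r over the members was 0.514 in retrieval library 1 and 0.486 in non-retrieval library 1. In the other libraries it was -0.375 to 0.295. These r values describe genes that share a library and are given without a p. Library 1 of each group was high in low-GC channel genes and low in high-GC ones such as Hcn2. Between log2 fold change and GC content r was 0.116 over the members.

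**Figure D4:**
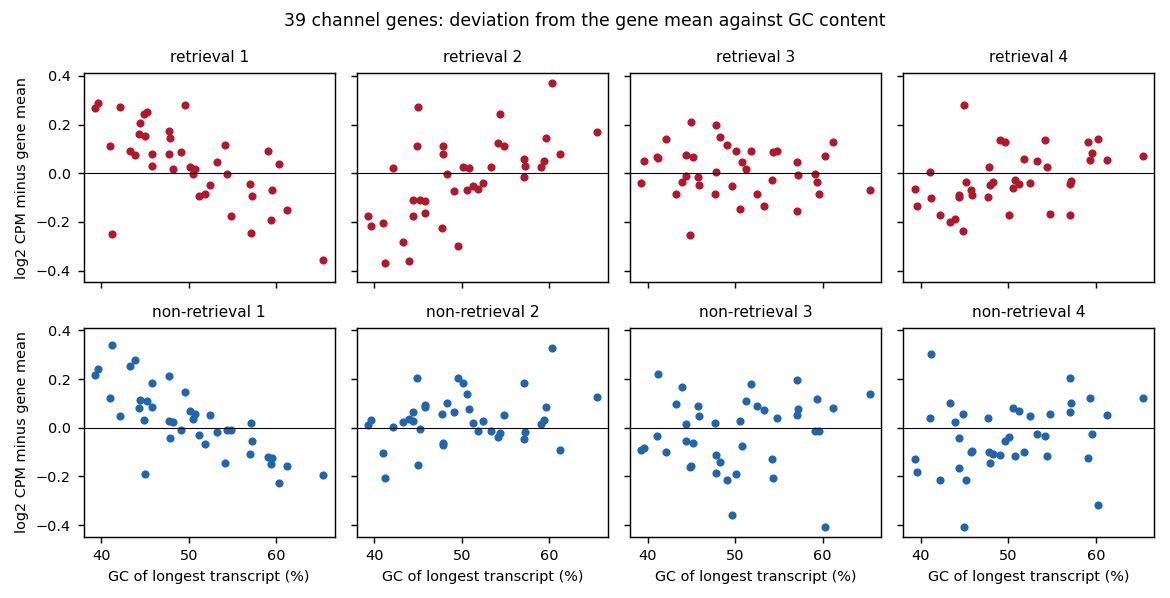
Deviation of each of the 39 channel genes from its own mean over the 8 libraries (log2 CPM, vertical axis) against the GC content of its longest transcript (percent, horizontal axis), 1 panel per library with retrieval above and non-retrieval below. The points slope down in library 1 of both groups (r -0.665 in retrieval, -0.787 in non-retrieval) and up in retrieval library 2 (r 0.628).

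With GC content and gene length corrected library by library (an offset in the model), Kcnn3 stayed higher (log2 fold change 0.40, adjusted p = 0.00349), the only member called higher, against 4.36% of all tested genes. In that fit 6 members were called lower (15.4%, against 3.5% of all tested genes). They were Scn1a (-0.29, adjusted p = 0.00177), Kcnj11 (-0.25, adjusted p = 0.00308), Kcna2 (-0.19, adjusted p = 0.0141), Kcnj3 (-0.24, adjusted p = 0.0172), Kcnh1 (-0.18, adjusted p = 0.0191) and Kcnq5 (-0.21, adjusted p = 0.0277). Of all calls, 55.5% were higher with the offset and 80.3% without it. With it, the median log2 fold change was -0.05 over the members and -0.03 over all tested genes. DESeq2 called Kcnn3 higher (4.76% of all genes with an adjusted p) and Kcnj11 lower (1.36%). Limma-voom with quality weights called Kcnn3 and Kcnf1 higher (5.13% of members, against 6.63% of all tested genes) and Kcnj3 and Scn1a lower (5.13%, against 3.04%). Of the members named as called lower in any of these 3 fits, only Kcnj11, Kcnj3 and Scn1a were called lower in more than 1.

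**Figure D5:**
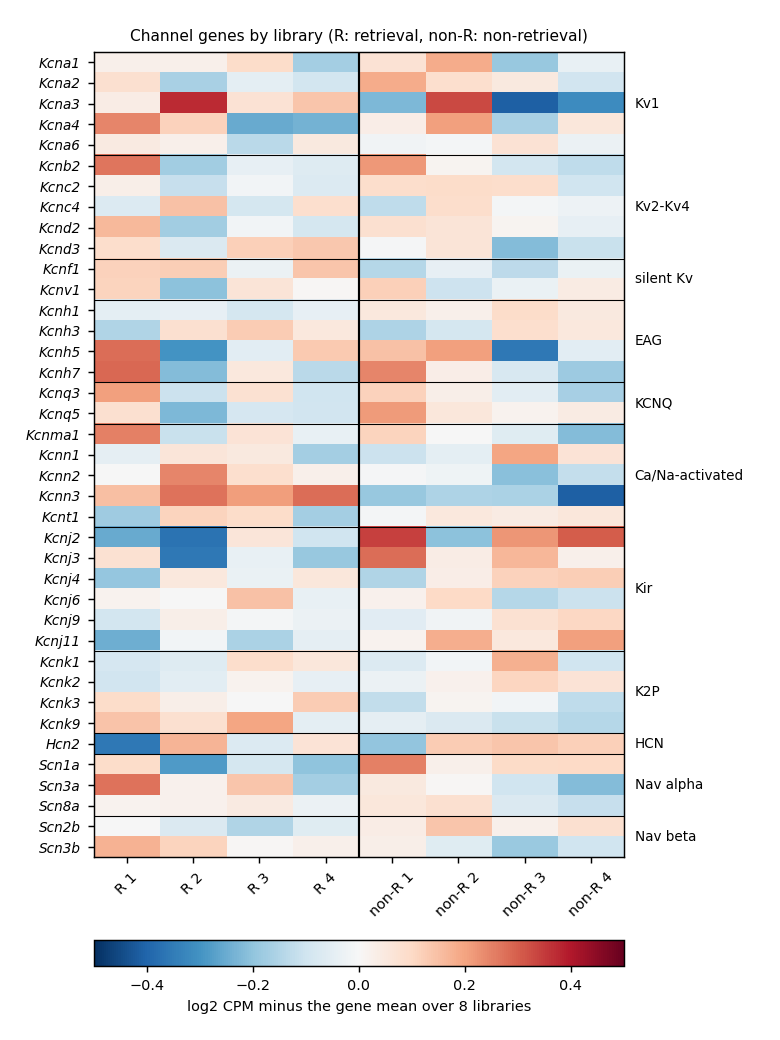
Log2 CPM of each channel gene minus its mean over the 8 libraries (colour scale from -0.5 to 0.5), genes by family down the page, retrieval libraries at the left of the vertical line and non-retrieval libraries at its right. Kcnn3 is above its mean in all 4 retrieval libraries and below it in all 4 non-retrieval libraries, while most other genes vary from library to library, as Hcn2 does with library 1 low in both groups.

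The remaining genes of these channel families, 83 listed by family name, were represented by 81 genes in the table, of which 61 were tested. Of these, 1 rose and 4 fell in retrieval, 1.64% and 6.56%, against 3.67% and 0.902% of all tested genes. Kcng1, a silent subunit that joins Kv2 channels as Kcnf1 does, had 50.1, 55.6, 48.8 and 50.2 CPM in retrieval libraries and 34.4, 38.3, 38.1 and 42.2 CPM in non-retrieval libraries. It rose by 0.42 on the log2 scale (SE 0.07; edgeR adjusted p = 0.00329), with groups that did not overlap, and the call held with each library left out in turn. Kcns2, another silent subunit, averaged 33.8 ± 2.50 CPM in retrieval and 41.4 ± 2.21 CPM in non-retrieval (log2 fold change -0.29, adjusted p = 0.0323). Kcnab3, a cytoplasmic beta subunit of Kv1 channels, averaged 33.5 ± 2.58 CPM in retrieval and 42.6 ± 4.72 CPM in non-retrieval (-0.35, adjusted p = 0.0277). Lrrc55, an auxiliary gamma subunit of the BK channel, averaged 15.5 ± 0.113 CPM in retrieval and 19.4 ± 1.42 CPM in non-retrieval (-0.32, adjusted p = 0.0316).

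Scn4b, a sodium channel beta subunit that supports resurgent current, averaged 73.7 ± 14.7 CPM in retrieval and 102 ± 15.4 CPM in non-retrieval (-0.47, adjusted p = 0.0356). Its groups overlapped, and retrieval library 2, the one with the highest striatal marker sum, had the highest Scn4b of its group at 94.1 CPM. The calls of Kcns2 and Lrrc55 each ended in 6 of the 8 fits with 1 library left out, that of Scn4b in 5 and that of Kcnab3 in 4. None of the 5 genes was called with the myelin marker level as a covariate, when 169 of all tested genes were called. In that fit their log2 fold changes were 0.33 (SE 0.11) for Kcng1, -0.21 (SE 0.11) for Kcns2, -0.33 (SE 0.13) for Kcnab3, -0.35 (SE 0.13) for Lrrc55 and -0.55 (SE 0.18) for Scn4b. Over the 61 genes the median log2 fold change was -0.05, against -0.01 over all tested genes. Of the 18 auxiliary potassium channel subunit genes tested, 15 had a negative log2 fold change and 3 a positive one, and 2 were called, both lower. Of all 16745 tested genes, 7997 had a positive log2 fold change.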

How the data were processed

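Per the labels' protocols, extraction used the RNeasy Micro kit and library preparation the NEBNext Ultra RNA kit. The authors deposited 1 table of unnormalized read counts by gene, with gene lengths and coordinates. Per the submitters' processing notes, the build was GRCm38 and the tools were featureCounts 1.5.0-p3 and HISAT2 2.0.5. The sources used here do not give the annotation release or strand setting. Groups and library numbers come from the titles. Each library is a pool of mice, so p-values measure the spread between pools.

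Counts were filtered with filterByExpr, scaled with TMM and tested with edgeR 4.0.16 (quasi-likelihood F test, two-sided, R 4.3.3) over all 16745 tested genes, with Benjamini-Hochberg adjustment and calls under 0.05. A positive log2 fold change means higher in retrieval, and 95% intervals use the t distribution of the fit. CPM use the same factors, RPKM also the deposited gene length, and log2 CPM a prior count of 2. Alternatives were DESeq2 1.42.0 (as a test, and for size factors), limma-voom 3.58.1 with quality weights, library totals alone, other filters, an adjusted p under 0.1, the replicate number as a block, a loess offset (span 0.5) for gene length and GC content, a myelin covariate (mean log2 CPM of 10 markers), and leaving out each library. GC content came from GENCODE transcripts of GRCm38 and was available for 16727 tested genes. Promoter windows are from RefSeq (GRCm38.p6).

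The members and all gene lists were chosen with earlier results of these data known. All 39 members are accounted for, with values of every library for the 10 with the smallest p. Kcna3, Kcnh1 and Hcn2 were given library by library after their values were seen. Other channel genes are named where called, and Kcnj5 and Scn2a as parts of a family share. The change of Kcnj5 was given after it was seen.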

Additional observations from a re-analysis of the deposited data

Results flagged for a closer look

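Among 88 groups of 4 libraries (each member, and each other channel gene called, in each group), 6 had 1 library whose gap to its nearest neighbour passed Dixon's 95% critical value as a share of the range. Chance flags about 1 in 20 groups. Kcnn3 stood at 15.34 CPM in non-retrieval library 4, with the other 3 at 17.85 to 18.3 CPM. Leaving it out gave a log2 fold change of 0.40, still called (edgeR adjusted p = 0.0204). Kcnf1 stood at 236.5 CPM in retrieval library 3, below 261.3 to 265.3 CPM in the other 3. Hcn2 was at 200.5 CPM in non-retrieval library 1, against 249.8 to 252.7 CPM in the rest of that group. Kcnc2, a Kv3 subunit gene, was at 138.9 CPM in non-retrieval library 4 and at 158.3 to 158.9 CPM in the others. Kcna6, a Kv1 subunit gene, was low in retrieval library 3 (100.3 CPM, the others 111.9 to 114 CPM) and high in non-retrieval library 3 (115.6 CPM, the others 108 to 109.2 CPM).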

How the results depend on the processing

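Of all tested genes, 766 were called as reported, 1619 by limma-voom, 1316 with the length and GC offset, 169 with the myelin covariate, 1173 at an adjusted p under 0.1, and 330 to 1360 with 1 library left out. Members called higher numbered 1, but 2 by limma-voom, 0 with the myelin covariate and 1 to 2 with 1 library left out. Of all tested genes, 3.67% were higher, but 6.63% by limma-voom. The myelin covariate gave 151 higher calls over all tested genes, and leaving out 1 library gave 283 to 1032. Members called lower numbered 0, but 3 with no filter on low counts, 1 by DESeq2, 2 by limma-voom, 6 with the offset, 1 at an adjusted p under 0.1, and 0 to 2 with 1 library left out. Of all tested genes, 0.902% were lower, but 1.36% by DESeq2, 3.04% by limma-voom and 3.5% with the offset. In the last 3 fits the members' shares were 2.56%, 5.13% and 15.4%. Lower calls over all genes numbered 241 with no filter, 284 at an adjusted p under 0.1 and 45 to 328 with 1 library left out. At 0 lower calls, 6 members had an unadjusted p under 0.05. Kcnj3 and Scn1a were called lower without retrieval library 1, and Kcna3 higher and Kcnj2 lower without non-retrieval library 2. Other channel genes called numbered 5, but 13 with the offset, 0 with the myelin covariate (log2 fold changes then 0.33 for Kcng1 and -0.55 to -0.21 for the other 4) and 1 to 5 with 1 library left out. Kcnj3 changed sign with the myelin covariate (0.0079, adjusted p = 0.982). Scn4b was not called by DESeq2 (adjusted p = 0.0999). The cause of these changes was not tested.

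Libraries with the same number deviated together only weakly over all tested genes (r 0.0268 to 0.221, not every pair above 0.1), so the numbers were not used as pairs, although each of the 8 libraries correlated best with its own number, a hint from the data and not from the design. Over the 39 members alone the same-number r was higher, 0.314 to 0.78, and above 0.1 in every pair. With the replicate number as a block, 1791 genes were called, and 5 members were higher and 5 lower (12.8% each, against 7.61% and 3.09% of all tested genes). Of the 61 other channel genes tested, 7 were called, 1 higher and 6 lower (1.64% and 9.84%). Beside Kcnn3, the members higher in that fit were Kcna3, Kcnf1, Kcnk9 and Scn3b, and those lower were Kcnj2, Kcnj3, Kcnj11, Kcnq5 and Scn1a. With the block and the length and GC offset together, added after seeing the data, 1944 genes were called. In that fit 3 members were higher and 11 lower (7.69% and 28.2%, against 5.88% and 5.73% of all tested genes). Of the other channel genes 16 were called, 1 higher and 15 lower (1.64% and 24.6% of the 61 tested).

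For the 10 members with the smallest p, 152 of 180 alternative fits kept direction and side of the threshold. Of the rest, 26 passed it newly, 1 lost it (Kcnn3 with the myelin covariate) and 1 changed sign. Kcna3, Kcnh1 and Hcn2, also given library by library, were not in this count. For the 5 other channel genes called, 63 of 90 fits kept direction and call and 27 lost the call. Of the 152, 17 were fits of Kcnn3, and the rest were of members not called in the main fit that stayed uncalled. This count takes no account of size. With the myelin covariate, Scn1a at -0.01 and Kcnj2 at -0.06 counted as kept. Kcnn3 was called in each alternative run except the myelin covariate. Intervals cover the spread of 4 pools a group.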
